A study of Mus musculus with 4 samples.

Results

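Transcript levels of 8 genes that respond to, or act back on, transforming growth factor-β (TGF-β) were examined in cardiac endothelial cells. These were Thbs1, Tgfbi, Ski, Skil, Tgif1, Pmepa1, Ldlrad4 and Bambi. They were chosen by name for their known place in the pathway, and each name matched 1 of 45882 gene IDs in the deposited table. The study asked how doxorubicin (Dox), an anthracycline used against cancer that can damage the heart, acts on the endothelium of mice with and without Smad3. Endothelial cells were selected from perfused hearts in 2 rounds with magnetic beads that bind CD31 (Pecam1), an endothelial surface protein, and their RNA was sequenced.

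The mice were male and either wild type (WT) or deficient in Smad3 throughout the body (Smad3 KO, line 129-Smad3tm1Par/J). From 7 wk of age they received 4 weekly tail vein injections of Dox at 5 mg/kg or of saline, and the cells were collected 9 wk after the last injection, at 20 wk of age. There were thus 4 groups with 1 library each, saline and Dox in WT and saline and Dox in Smad3 KO. Values listed without names below are in this order. How many mice a library holds is not given in the sources used here. With 1 library a group there is no replicate check on any difference, so neither SD nor p-value is given. For 2 of the libraries the genotype tag went against the sample title (the library titled Smad3 KO saline was tagged WT, and the library titled WT Dox was tagged Smad3 KO). Groups follow the titles. Under the tags, genotype and treatment would be the same split.

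TGF-β binds a pair of serine-threonine kinase receptors, which phosphorylate Smad2 and Smad3 so that they enter the nucleus with Smad4 and act on target genes. Many targets act back on the signal, at the ligand, at the receptor or on the Smad proteins, and most of the 8 genes are such regulators. In endothelium the pathway is known for its part in vessel quiescence, matrix production and the response to injury. Thbs1 encodes thrombospondin-1, a secreted protein that can activate latent TGF-β and inhibits angiogenesis. Tgfbi encodes a secreted matrix protein named for its induction by TGF-β. Ski and Skil (SnoN) encode corepressors that bind Smad proteins in the nucleus, and Tgif1 encodes a homeodomain protein that represses Smad2-dependent transcription. Pmepa1 and Ldlrad4 encode membrane proteins that bind receptor-activated Smads and hinder their activation, and Bambi encodes a pseudoreceptor that lacks the kinase domain.

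In GRCm38 (GENCODE annotation) Thbs1 lies at chr2:118111876-118127133 and Tgfbi at chr13:56609523-56639562. Ski lies at chr4:155154075-155222592, Skil at chr3:31095058-31122577, Tgif1 at chr17:70844205-70853546 and Pmepa1 at chr2:173224458-173276533. Values are given per gene. Sequence upstream of the start site was held for 3 of the 8 genes in the promoter set of RefSeq (build GRCm38.p6) and is shown because Smad proteins bind DNA at short motifs. The CAGAC motif is the Smad-binding element, and GGCGC and GGCCG are GC-rich letters that Smad proteins also bind. Each run below ends at the last base before the gene's first base in GENCODE, which lies upstream of the RefSeq start. Capitals mark CAGAC on either strand (GTCTG where it lies on the other strand) in Tgfbi and Tgif1, and GGCGC on either strand (also as GCGCC) in Ski. The Tgfbi run is chr13:56609336-56609522 on the plus strand, the Tgif1 run is chr17:70853547-70853782 on the minus strand and the Ski run is chr4:155222593-155222785 on the minus strand.
Tgfbi: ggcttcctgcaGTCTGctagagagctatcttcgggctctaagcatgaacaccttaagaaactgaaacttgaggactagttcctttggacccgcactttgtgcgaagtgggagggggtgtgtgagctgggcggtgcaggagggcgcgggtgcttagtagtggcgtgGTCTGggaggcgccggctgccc
Tgif1: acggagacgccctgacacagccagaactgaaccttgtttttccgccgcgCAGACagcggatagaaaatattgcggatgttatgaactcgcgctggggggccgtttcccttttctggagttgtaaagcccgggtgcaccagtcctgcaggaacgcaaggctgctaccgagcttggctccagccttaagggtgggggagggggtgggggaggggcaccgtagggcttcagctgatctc
Ski: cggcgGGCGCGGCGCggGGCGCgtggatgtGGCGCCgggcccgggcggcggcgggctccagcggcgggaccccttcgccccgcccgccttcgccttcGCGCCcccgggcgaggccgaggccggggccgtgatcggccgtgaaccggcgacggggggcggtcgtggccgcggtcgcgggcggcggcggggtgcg
The motifs were counted in windows of 250 bases before the RefSeq start, from which distances are given, so the windows run on past the end of the printed runs. Tgfbi held CAGAC at 2 places, 239 and 85 bases upstream of that start, both on the minus strand. The outermost of 5 Tgif1 windows held it once, 201 bases upstream, and the Ski window did not hold it. Over all 32851 windows of that length, 42.2% held CAGAC on either strand, so its presence is common. The Ski window was 87.6% G or C and held GGCGC at 7 places (6 of them in the printed run) and GGCCG at 9, against 32% and 30.4% of all windows with at least 1 such match. The AP-1 motif TGANTCA, counted on both strands, stood in 6.75% of all windows and in none of those of these 3 genes. Such matches are descriptions of letters and not of binding.

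Levels are in FPKM, sequenced fragments relative to the length of the transcript and the size of the library. Counts were not part of the table, but low values lie on steps, whose size gave estimates of 21400000 fragments for Smad3 KO Dox and 26000000 to 28400000 for the other 3 libraries. Smad3, the targeted gene, stood at 2.95 FPKM with saline and 2.09 with Dox in WT, and at 1.02 and 0.848 in Smad3 KO, so both libraries titled Smad3 KO were the lowest. The 12 endothelial markers were all detected in every library, with summed levels of 2356 to 2978 FPKM and Smad3 KO Dox lowest. RNA of other cells was also present. Red blood cell markers summed to 4384 to 4423 FPKM in the WT libraries and, in Smad3 KO, to 10289 with saline and 28549 with Dox. The cardiomyocyte markers summed to 1041, 1363, 1749 and 2411 FPKM. Myl2 was the largest part of that sum, at 329, 438, 582 and 920 FPKM. Some of the markers did not follow its order, such as Myl7, at 37.7, 22.4, 63.7 and 16.1 FPKM.

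All 8 genes were above the mean of 1 FPKM that defined the 12325 genes compared. Ski had the highest mean over the 4 libraries, 53.6 FPKM, above 89.0% of genes compared. Tgfbi (25.3), Thbs1 (19.7) and Skil (18.7) followed, then Pmepa1 (11.7), Tgif1 (9.76), Ldlrad4 (7.20) and Bambi (5.16 FPKM). The ranges of neighbours in this order overlapped, except that Ski did not overlap with Tgfbi. Levels of 6 of the 8 genes stayed within a factor of 2 over all 4 libraries, which was true of 71.3% of genes compared. The exceptions were Thbs1, with 2.81 times as much in its highest as in its lowest library, and Skil, with 2.22 times. Differences below are between log2(FPKM + 0.5) values, on which low genes appear to change less than they do. Rises and falls are differences of at least 1 on this scale, and smaller ones are given as values.

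**Figure D1:**
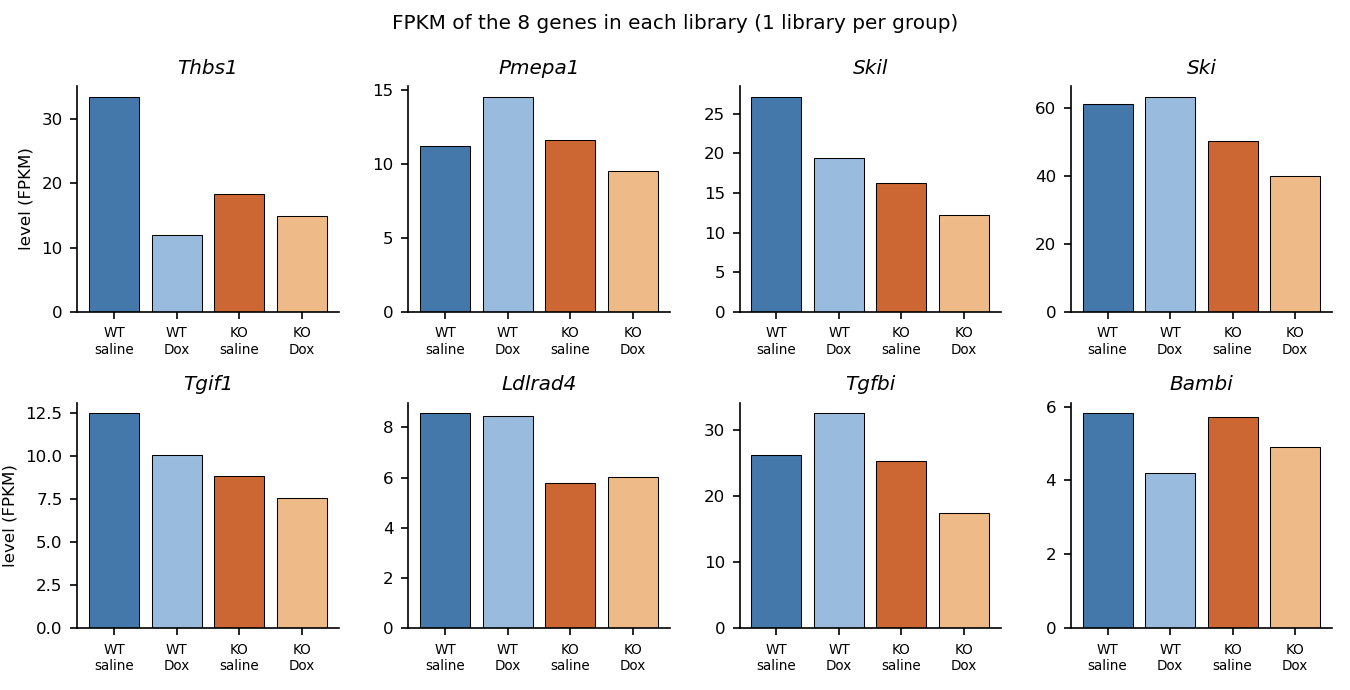
Level in FPKM (vertical axis, starting at 0 in each panel) of the 8 genes in the 4 libraries, 1 bar per library and 1 library per group. Thbs1 was highest in WT saline (33.5 FPKM), and Smad3 KO Dox was the lowest bar for Pmepa1, Skil, Ski, Tgif1 and Tgfbi.

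Thbs1 showed the largest difference of the 8 genes and the only 1 past that size. In WT it stood at 33.5 FPKM with saline and 11.9 with Dox, and in Smad3 KO at 18.4 with saline and 14.9 with Dox. WT saline was thus well above the other 3 libraries, which ranged from 11.9 to 18.4 FPKM. Thbs1 fell by 1.45 on the log2 scale in WT Dox against WT saline, to 0.356 of the FPKM, and only 0.917% of genes compared had a lower difference. In these bulk samples, fewer cells that express a gene and less of its RNA per cell cannot be told apart. Between the Smad3 KO libraries the Dox difference was -0.29, so the Dox difference was 1.16 higher in Smad3 KO than in WT, and this difference of differences was not tested. Smad3 KO saline lay 0.85 below WT saline, a log2 difference of -0.85, while Smad3 KO Dox lay above WT Dox, at 0.31.

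Some other gene lists also summed highest in WT saline. The 22 immediate early and dissociation genes, which respond within minutes to stimuli including cell isolation, summed to 18346 FPKM in WT saline and to between 13582 and 14644 in the other 3 libraries. Their median log2 difference in WT Dox against WT saline was -0.43, against -0.06 for all genes. There 1 of 22, Gadd45b, fell, against 2.69% of genes compared, and none rose, so nothing is read from that count. Thbs1 is itself known to be induced by serum and growth factors. Platelets carry much thrombospondin-1, and the 9 platelet markers summed to 55.7, 44.1, 38.3 and 29.7 FPKM. That sum was lowest in Smad3 KO Dox, while Thbs1 was lowest in WT Dox. Most of the sum, and its order, was Pf4, at 52.6, 41.8, 35.4 and 25.6 FPKM. The other platelet markers were low, and 2 or 3 of the 9 were listed at 0.05 FPKM, the table's lowest value, in each library. Among the low ones Itga2b was also highest in WT saline (1.63 FPKM), but Ppbp was highest in Smad3 KO Dox (1.42 FPKM). The part of these genes in the Thbs1 difference was not tested. Among the other thrombospondins, Thbs2 ranged from 2.65 to 4.03 FPKM, and Thbs3 rose by 1.01 in Smad3 KO Dox against WT Dox, from 1.47 to 3.47 FPKM, a difference that was 0.92 with median-ratio scaling.

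Of the 8 genes, Tgfbi differed most between genotypes after Dox. Its level was 26.1 FPKM with saline and 32.5 with Dox in WT, against 25.2 and 17.3 in Smad3 KO. The saline libraries lay together, with WT Dox above and Smad3 KO Dox below them. Smad3 KO Dox stood at 0.534 of the FPKM of WT Dox, a log2 difference of -0.89 that missed the size used here, and 5.15% of genes compared had a lower one. The Dox difference was 0.31 in WT and -0.53 in Smad3 KO. Between the saline libraries the log2 difference was -0.05, within the counting error of 0.06 (SE) estimated for this gene.

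Monocytes and macrophages also make Tgfbi, and the sum of their markers ran in the same order. The 20 macrophage and monocyte markers were all detected in every library. They summed to 1033 FPKM with saline and 1199 with Dox in WT, and to 697 and 528 in Smad3 KO. Between the WT libraries the higher sum with Dox rested on Cd74, at 273 FPKM with saline and 443 with Dox. Others, such as Cd163 (19.5 and 12.9 FPKM), were lower with Dox there. The median log2 difference of the markers in WT Dox against WT saline was 0.06. In Smad3 KO Dox against WT Dox, 11 of the 18 that passed the filter fell, against 3.75% of genes compared. Their median log2 difference there was -1.27, against 0.12 for all genes. Lyz2, the lysozyme of myeloid cells, fell by 2.26, and Csf1r, the receptor of macrophage colony-stimulating factor, fell by 1.40. The part of these cells in the Tgfbi difference was not tested.

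The nuclear repressors Ski, Skil and Tgif1 were lower in both Smad3 KO libraries than in both WT libraries. Ski stood at 61.1 FPKM with saline and 63.3 with Dox in WT, and at 50.2 and 39.9 in Smad3 KO. The WT libraries were nearly equal, and the Smad3 KO libraries lay below them with Smad3 KO Dox lowest. Its log2 difference between genotypes was -0.28 within saline and -0.66 within Dox. Skil stood at 27.1, 19.4, 16.2 and 12.2 FPKM, a stepwise order in which no pair compared differed by 1 or more. Its genotype differences were -0.72 within saline and -0.64 within Dox, and its Dox differences were -0.48 in WT and -0.40 in Smad3 KO. Tgif1 had the same order at lower levels, with 12.5, 10.1, 8.88 and 7.60 FPKM. Its genotype differences were -0.47 within saline and -0.38 within Dox. The related Tgif2 was low and ran the other way, from 1.33 to 1.36 FPKM in the WT libraries and from 1.52 to 1.88 in the Smad3 KO libraries.

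The membrane inhibitors, of which Ldlrad4 and Bambi lie on chromosome 18, differed among themselves. Ldlrad4 split by genotype with almost no Dox difference, at 8.56 and 8.45 FPKM in the WT libraries and 5.80 and 6.01 in the Smad3 KO libraries. Its genotype differences were -0.52 within saline and -0.46 within Dox, and its Dox differences were -0.02 and 0.05. Ldlrad4 shares 2798 exonic bases with Fam210a on the opposite strand, which stood at 1.27 to 2.11 FPKM, and since the use of strand in counting is not given, reads of the 2 genes may be mixed. Pmepa1 stood at 11.2 FPKM with saline and 14.5 with Dox in WT, and at 11.6 and 9.55 in Smad3 KO, so that the WT Dox library was highest and Smad3 KO Dox lowest, as for Tgfbi. Its genotype difference was 0.04 within saline and -0.58 within Dox. Bambi had the lowest mean of the 8 genes, with 5.82, 4.20, 5.71 and 4.90 FPKM, and did not split by genotype. Both saline libraries stood above both Dox libraries, as they did for Thbs1, with Dox differences of -0.43 in WT and -0.20 in Smad3 KO, the latter of which changed sign when each library was scaled to 1 fixed sum (TPM). Bambi-ps1, a pseudogene copy, stood at 5.94 to 9.90 FPKM, so the values of Bambi are uncertain.

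Counting error was small beside most of these differences. For the longest coding transcript of each gene, the estimated depth gave between 236 (Tgif1) and 4490 (Ski) fragments in the library where each gene had fewest. The SE of a log2 difference from counting alone was then at most 0.03 for Ski, 0.05 for Thbs1, 0.04 for Skil and 0.12 for Tgif1 and Ldlrad4. For the shortest coding transcript it reached 0.26 (Tgif1). These errors leave out the variation between mice and between preparations, which 1 library per group cannot show.

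In WT Dox against WT saline 1 of the 8 passed the size used here (Thbs1), where 3.72% of genes compared passed in either direction and 2.69% fell. The median log2 difference was -0.16 for the 8 genes and -0.06 for all genes. Below WT saline at any size were 5 of 8, against 56.9% of genes compared, a share near the background. In Smad3 KO Dox against Smad3 KO saline 0 of 8 passed, against 6.86% of genes compared, with a median of -0.28 for the 8 genes and 0.05 for all. Of the 8 genes 7 were lower in Smad3 KO Dox, against 44.9% of genes compared, by 0.20 to 0.53 on the log2 scale, and Ldlrad4 was not. Of these 7, Tgif1 and Bambi changed sign with TPM, and Tgif1, Bambi and Pmepa1 did so when the endothelial markers set the scale.

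Between genotypes, none of the 8 genes passed the size used here, and most lay on the lower side. In Smad3 KO saline against WT saline 0 of 8 passed, against 4.72% of genes compared, and the median was -0.38 for the 8 genes and -0.01 for all. Lower at any size were 7 of 8, against 51.4% of genes compared, of which Tgfbi and Bambi changed sign when the endothelial markers set the scale. At least 0.5 lower were 3 of 8 (Thbs1, Skil and Ldlrad4), against 14.6% of genes compared. In Smad3 KO Dox against WT Dox 0 of 8 passed, against 9.93%, and the median was -0.52 against 0.12. Lower at any size were 6 of 8, against 41.9%. At least 0.5 lower were 4 of 8 (Tgfbi, Ski, Skil and Pmepa1), against 15.2% of genes compared, and 0 of 8 were at least 0.5 higher, against 24%. The plot of log2 differences shows each gene beside the spread of all genes compared. Each comparison shares a library with 2 of the others, while the 2 comparisons between genotypes share none.

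**Figure D2:**
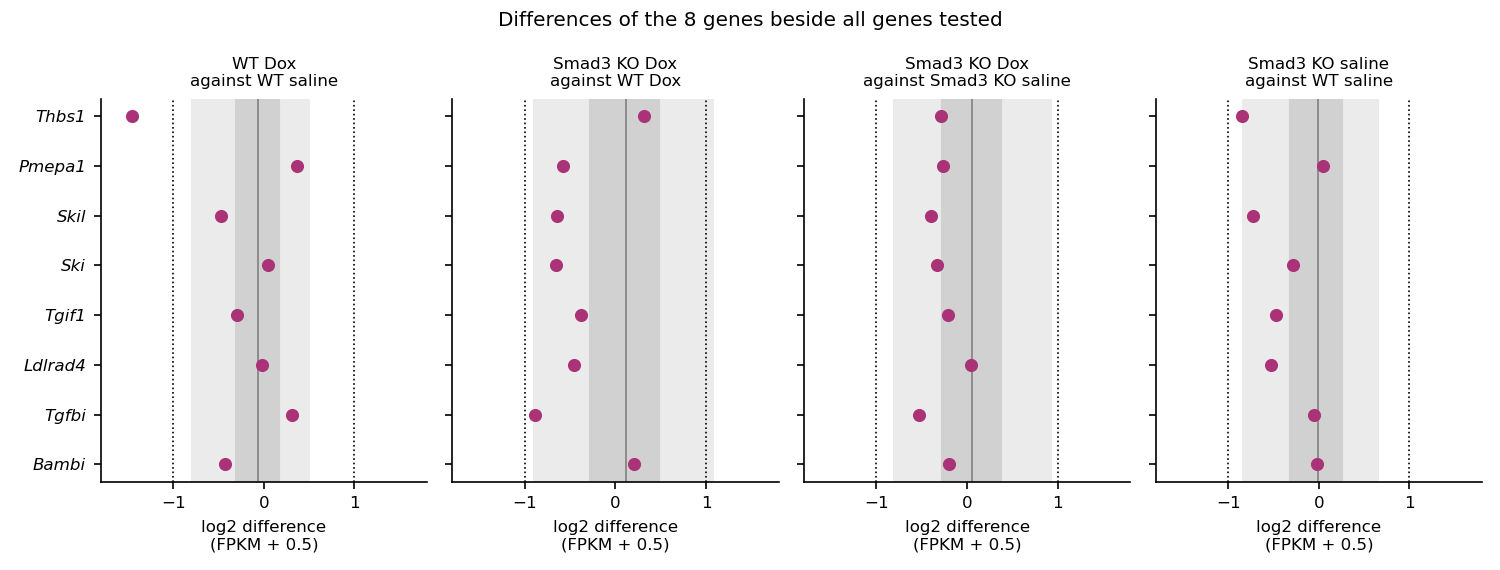
Difference in log2(FPKM + 0.5) (horizontal axis) of the 8 genes (rows) in the 4 comparisons (panels), with bands for the 25 to 75 percentile range (dark) and the 5 to 95 percentile range (light) of all 12325 genes compared, a line at their median and dotted lines at a difference of 1 in either direction. Of the 8 genes only Thbs1 in WT Dox against WT saline (-1.45) lies past a dotted line, and in Smad3 KO Dox against WT Dox 6 of the 8 points lie below 0.

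Both WT libraries stood above both Smad3 KO libraries for 5 of the 8 genes (Skil, Ski, Tgif1, Ldlrad4 and Tgfbi), as they did for 20.7% of genes compared. For Tgfbi this rested on a difference of -0.05 between the saline libraries, within its counting error of 0.06 (SE). For none of the 8 did both WT libraries stand below both Smad3 KO libraries, which held for 28% of genes compared. At least 0.25 lower in Smad3 KO both within saline and within Dox were 4 of 8 (the same genes without Tgfbi), against 14.4%. The mean log2 difference between genotypes was -0.68 for Skil, -0.49 for Ldlrad4, -0.47 for both Ski and Tgfbi, and -0.43 for Tgif1. It was -0.27 for both Thbs1 and Pmepa1 and 0.09 for Bambi. Smad3 KO Dox was the lowest of the 4 libraries for 5 of 8 genes, against 31.4% of genes compared. That library also had the lowest estimated depth, the lowest summed endothelial markers and the highest red blood cell markers, and their part in the order was not tested. Without it, WT saline and WT Dox both stood above Smad3 KO saline for the same number, 5 of 8 genes, against 32% of genes compared. Leaving out a library cannot lower this count, so nothing is read from its staying the same. If the genotype tags were taken in place of the titles, the order would hold for none of these 5 genes, and for Thbs1 and Bambi instead.

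**Figure D3:**
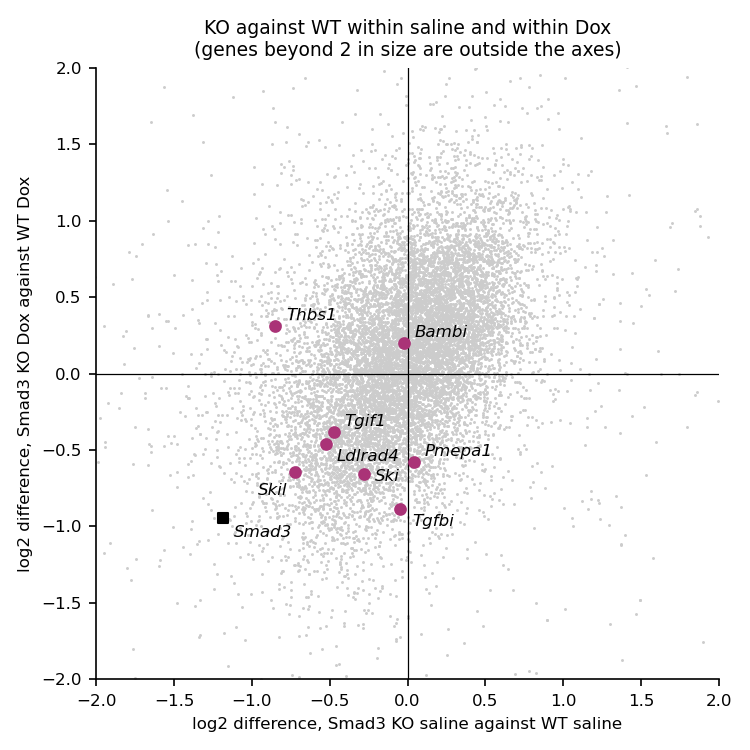
Smad3 KO saline against WT saline (horizontal axis) and Smad3 KO Dox against WT Dox (vertical axis), both as differences in log2(FPKM + 0.5). Grey points are the genes compared that fall within the plotted range, purple points the 8 genes and the black square Smad3. Skil (-0.72 and -0.64), Ldlrad4 (-0.52 and -0.46), Tgif1 (-0.47 and -0.38) and Ski (-0.28 and -0.66) lie to the lower left, Thbs1 (-0.85 and 0.31) to the upper left.

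Patterns over the 4 libraries were compared by the root mean square distance of log2(FPKM + 0.5) values centred on each gene's mean, over 7675 genes that averaged 5 FPKM or more, leaving out predicted genes and receptor or antibody segments. Among the 8 genes, Ski lay closest to Tgfbi (0.12) and to Tgif1 (0.13), and Thbs1 lay furthest from the others, 0.64 from Pmepa1. The gene most like Ldlrad4 was Pdgfb, a subunit of platelet-derived growth factor and a known TGF-β target, at a distance of 0.01. Those most like Skil were Abl1, Ago2 and Taok1, those most like Ski were Sgk3, Itpripl2 and Slc35a3, and those most like Tgif1 were Wipf1, Pphln1 and Csnk1e. Pmepa1 was nearest to Slc16a3, C78339 and Carhsp1, Tgfbi to Aim1, Jade1 and Ap2a2, and Bambi to Exoc2, Armc5 and Spop. With only 4 libraries such likeness is common. Between 53 and 332 genes lay within 0.1 of each of these members, but none lay within 0.1 of Thbs1, which had Lpin3 and Tubgcp3 (both 0.12) among its nearest.

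In the lists of ligands, receptors, Smads, other targets and partners falls were few and there were no rises. Over all genes compared, 2.69% fell in WT Dox against WT saline, 3.75% in Smad3 KO Dox against WT Dox, 2.84% between the Smad3 KO libraries and 3.03% between the saline libraries, and nothing is read from 1 or 2 falls in a list. Of 10 TGF-β ligands and latency proteins that passed the filter, Ltbp4, which binds latent TGF-β in the matrix, was the most abundant to fall. It stood at 491, 371, 389 and 133 FPKM, and fell by 1.48 in Smad3 KO Dox against WT Dox and by 1.55 against Smad3 KO saline. Itgav, an integrin subunit that takes part in activating latent TGF-β, fell by 1.07 in Smad3 KO saline against WT saline, from 6.79 to 2.98 FPKM. These were the only falls on that list, with 0 rises in the 4 comparisons. None of the 8 receptors passed in any comparison, and their median in Smad3 KO Dox against WT Dox was -0.53. Tgfbr2, the type II receptor, stood at 45.2, 49.1, 36.7 and 27.3 FPKM.

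Among 16 Smads and Smad ubiquitin ligases, Smad7, the inhibitory Smad and a feedback target, stood at 38.0 FPKM with saline and 25.9 with Dox in WT, and at 21.2 and 9.63 in Smad3 KO. This is the order of Skil and Tgif1 with wider steps. Smad7 fell by 1.38 in Smad3 KO Dox against WT Dox and by 1.10 against Smad3 KO saline. Rnf111 (Arkadia), a ubiquitin ligase that removes the Ski, Skil and Smad7 proteins, fell by 1.20 in Smad3 KO saline against WT saline, from 6.24 to 2.43 FPKM, and Smad3 fell by 1.19 there. In the other comparisons no further gene of this list passed, and none rose.

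Of 39 other known TGF-β targets that passed the filter, none rose in any comparison. In WT Dox against WT saline 2 fell, Gadd45b (by 1.22) and Sphk1, the sphingosine kinase (by 1.08), and the median was -0.33. In Smad3 KO Dox against WT Dox 2 fell, Smad7 and the Notch ligand Jag1 (by 1.11), with a median of -0.04, and in Smad3 KO Dox against Smad3 KO saline 2 fell, Smad7 and fibronectin, Fn1 (by 1.03). In Smad3 KO saline against WT saline 0 passed. The classical target Ctgf, a matricellular growth factor, stood at 52.4, 43.3, 52.1 and 42.3 FPKM, with nearly equal levels in the 2 genotypes within each treatment. Both WT libraries stood above both Smad3 KO libraries for 8 of the 39 targets, near the 20.7% of all genes compared, and below them for 4, against 28%.

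Of 28 known partners of the 8 proteins, 2 fell in Smad3 KO Dox against WT Dox, 1 between the Smad3 KO libraries and 2 between the saline libraries. Sin3a, a scaffold of histone deacetylase complexes that act with Ski and Skil, stood at 12.4, 12.4, 9.40 and 5.80 FPKM and fell by 1.03 in Smad3 KO Dox against WT Dox. Itgav and Rnf111, the falls between the saline libraries, were also on this list, and no partner rose in any comparison. The falls of Jag1 and Sin3a in Smad3 KO Dox against WT Dox were both under 1 when the endothelial markers set the scale (to -0.83 and -0.76), as were those of Fn1 and Smad7 against Smad3 KO saline (-0.75 and -0.83).

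**Figure D4:**
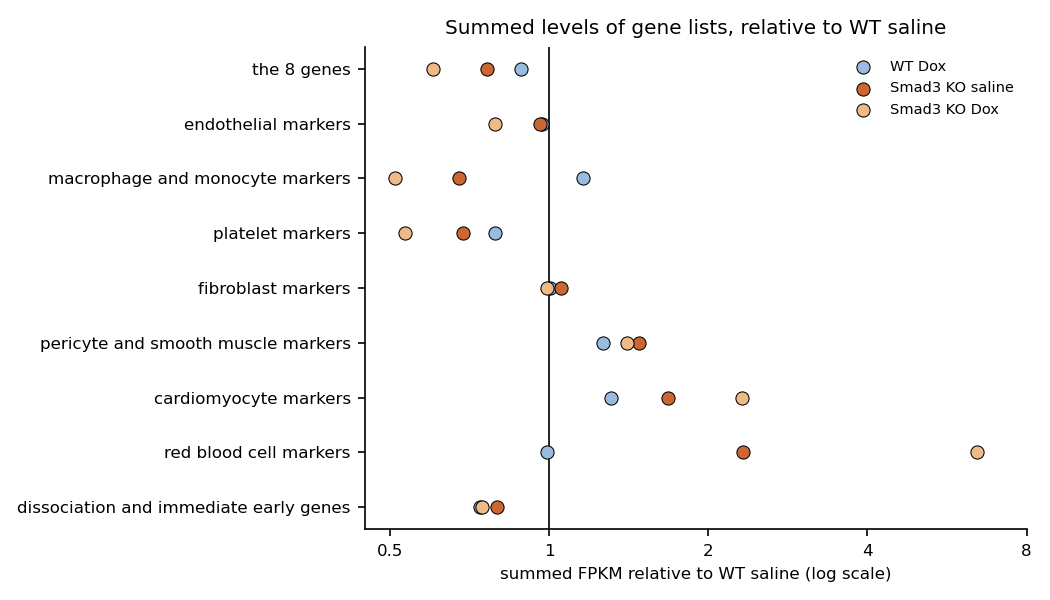
Summed FPKM of gene lists in each library relative to WT saline (log2 axis, 1 point per library). The 8 genes summed to 0.884 of WT saline in WT Dox and, in Smad3 KO, to 0.764 with saline and 0.605 with Dox, endothelial markers to 0.970, 0.961 and 0.791, macrophage and monocyte markers to 1.16, 0.675 and 0.510, and red blood cell markers to 0.991, 2.33 and 6.46.

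Markers of some cell types had the order of 5 of the 8 genes, both WT libraries above both Smad3 KO libraries, or its reverse. The order held for 15 of 18 macrophage and monocyte markers and 6 of 7 endocardial markers, against 20.7% of genes compared. For endothelial markers it held for 3 of 12, near that share, and for lymphatic markers for 3 of 8. It held for 0 of 13 cardiomyocyte and 0 of 5 red blood cell markers. Of these, 9 and 5 had the reverse, against 28% of genes compared. Among 12 pericyte and smooth muscle markers 1 had the order and 5 the reverse. Cdh5, the cadherin of endothelial junctions, stood at 475, 372, 341 and 168 FPKM, while Pecam1, the protein used for selection, ranged from 401 to 511 FPKM. The fibroblast markers summed to between 416 and 442 FPKM in all 4 libraries, but single markers differed in opposite directions. Dcn stood at 123, 134, 140 and 187 FPKM and Gsn at 162, 176, 178 and 111. Of 11 fibroblast markers 2 had both WT libraries above both Smad3 KO libraries and 4 had them below. When levels were set relative to the summed endothelial markers, a choice made after the data were seen, 4 genes (Skil, Ski, Tgif1 and Ldlrad4) kept both WT libraries above both Smad3 KO libraries, against 13.7% of genes compared. The part of these cell types in the order was not tested.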

How the data were processed

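RNA of CD31-selected cardiac endothelial cells was measured in 4 libraries, 1 per group, grouped by sample title. The authors deposited FPKM per gene and library. CASAVA, STAR and the build GRCm38.p4 are named in the submitters' processing notes, with no versions of the tools, while the study's methods name TopHat, Bowtie and Cufflinks, so the aligner is uncertain. Neither annotation nor strand setting is given in the sources used here. The table held 45952 lines for 45882 gene IDs. The 51 IDs on several lines (121 lines) were summed, and 0.05 was the lowest value, found in all 4 libraries for 20531 IDs. No count model was fitted. Differences of log2(FPKM + 0.5) were taken among 12325 genes averaging at least 1 FPKM over the 4 libraries, and a difference of at least 1 is called a rise or fall, the size at which the study filtered its gene lists. The study marked targets in its volcano plots at a size of 2, which was tried as an alternative. The script was tested on simulated data.

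The members, lists and tests were chosen with earlier results of these data known. Named genes are the 8 members, Smad3, of each list up to 3 genes with the largest differences past that size in each comparison, and for each member the 3 genes with the most similar pattern. Some genes that meet this rule are not reported here. Bambi-ps1, Fam210a, Tgif2, Thbs2, Tgfbr2, Ctgf, Pf4, Ppbp, Cd74, Csf1r, Cdh5, Pecam1, Myl2, Dcn and Gsn were named after their values were seen. Fragments were estimated from the spacing of low values of 200 to 303 genes a library and GENCODE transcript lengths, and counting errors cover counting only. Gene structures came from GENCODE and promoters from RefSeq. Alternatives changed the pseudocount, the filter, the scaling (median ratio, upper quartile, TPM) and the size rule. Scaling to endothelial markers, removal of the trend with transcript length, the counts of genotype order and the alternatives for pathway genes were added after seeing the data. Python 3.11.15, pandas 2.3.3, numpy 2.4.6 and matplotlib 3.10.9 were used.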

Additional observations from a re-analysis of the deposited data

Results flagged for a closer look

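Tgfbi, Pmepa1, Ski and Ldlrad4 had Dox differences of opposite direction in WT and in Smad3 KO, each from 1 pair of libraries. The difference between genotypes was not tested for any of them. Lower after Dox in both genotypes were 4 of the 8 genes, against 30% of genes compared. The share of all genes with opposite directions in either way was not counted, so nothing is read from the number of members. The Dox difference in Smad3 KO minus that in WT was -0.84 for Tgfbi (0.31 in WT and -0.53 in Smad3 KO), and 4.45% of genes compared had a lower value. It was -0.63 for Pmepa1 (0.36 and -0.27), with 8.03% of genes lower, and -0.38 for Ski (0.05 and -0.33), with 16.2% lower. For Ldlrad4 it was 0.063 (-0.02 and 0.05), within the counting error, and median-ratio scaling turned both of its directions. The direction for Ski in WT turned with TPM (-0.13), and that for Pmepa1 in Smad3 KO was at 0.00 when the endothelial markers set the scale. Higher after Dox in WT and lower after Dox in Smad3 KO were 3 of the 8 genes (Pmepa1, Ski and Tgfbi), against 14.7% of genes compared.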

How the results depend on the processing

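No called value changed direction under the alternatives run. Of 416 differences of single members under alternatives, 402 kept their direction or stayed under the threshold, 13 came past it and 1 was lost. The fall of Thbs1 in WT Dox ranged from -1.65 to -1.32 and was lost only with a size rule of 2, which left 0 members. In Smad3 KO Dox against WT Dox 1 member passed with upper-quartile scaling (Tgfbi), 1 with the length trend removed (Tgfbi, -1.06) and 4 with a size rule of 0.5. Between the saline libraries 2 passed with TPM (Thbs1, -1.24, and Skil, -1.11), 1 with TPM that left out mitochondrially encoded and red blood cell genes (Thbs1, -1.07) and 3 with a size rule of 0.5, at which 1 passed in Smad3 KO Dox against Smad3 KO saline. Smad3 in KO against WT, a mean log2 difference of -1.06, was -0.29 with the genotype tags, -0.86 with a pseudocount of 1 and -0.94 scaled to endothelial markers. The genotype order held for 6 members with TPM, against 31.5% of genes compared, and for 4 with endothelial scaling, against 13.7%. As reported it held for 5 members, against 20.7%. The median of all genes with TPM was -0.24, 0.16, 0.29 and -0.38 (-0.06, 0.12, 0.05 and -0.01 as reported) in the Dox comparison in WT, the genotype comparison within Dox, the Dox comparison in Smad3 KO and the genotype comparison within saline, and with endothelial scaling it was 0.39 and 0.31 in the comparisons that hold Smad3 KO Dox.

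Members under the threshold changed sign at sizes of at most 0.33 under these scalings (Pmepa1 in Smad3 KO saline with TPM, -0.33). Counts of all genes in these 4 comparisons (459, 1224, 845 and 582) became 814, 2044, 1662 and 992 with no filter, 164, 632, 371 and 252 with a mean of at least 5 FPKM, 2241, 4829, 3838 and 3039 with a size rule of 0.5, 86, 154, 142 and 109 with a size rule of 2, and 239, 712, 487 and 345 with the length trend removed, a setting that covers the 11277 genes with a transcript length, of which 268, 925, 581 and 363 passed with the trend kept. TPM gave 741 in WT Dox against WT saline (111 higher and 630 lower, against 127 and 332) and 1406 between the saline libraries (130 and 1276, against 209 and 373), or 981 there without mitochondrially encoded and red blood cell genes. It gave 943 higher and 480 lower in Smad3 KO Dox against WT Dox (762 and 462 as reported) and 1009 and 247 between the Smad3 KO libraries (495 and 350). Endothelial scaling gave 1673 and 245 in the former, 1918 in all, and 1026 and 209 in the latter. Median-ratio scaling gave 575 and 612 in Smad3 KO Dox against WT Dox. Replacing only the lowest values gave 690 in WT Dox against WT saline. The cause was not tested. With a pseudocount of 1, Itgav (-0.97), Sin3a (-0.98), Thbs3 (0.85) and Smad3 between the saline libraries (-0.97) missed the threshold, as did Fn1, Itgav, Jag1, Sin3a and Thbs3 with the length trend removed. With 1 library per group no replicate could be left out in turn. No paired analysis was possible because each group has 1 library and the labels give no replicate numbers.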
